A study of Mus musculus with 3 samples.

Results

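Each cultured plate of this series held a block of wells into which, by the labels, more than 1 cell had been placed. On the plate of cultured E11.5 kidney cells this block was rows A to G of columns 18 to 23, 42 wells in all. The 36 of them with at least 1000 transcript counts of nuclear genes were set against the plate's 300 kept single-cell wells, 336 wells of the 1152 of the series. A single-cell well was one labelled neither as control nor as holding more than 1 cell. It was kept with at least 1000 such counts and at most 30% mitochondrial counts, and 27 of 327 wells fell short of the count minimum. The 3 multi-cell wells just above the minimum had 1026.3, 1097.2 and 1257.1 counts, and the 3 just below it 389, 635 and 769.1.

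The cells came from kidneys of E11.5 embryos of C57BL/6 mice that carried LGR6-EGFP-IRES-CreERT2 and ROSA26-tdTomato. In this pair of alleles a tamoxifen-dependent Cre under control of the Lgr6 gene can switch on a red fluorescent protein, and the sources used here do not say whether the cultures received tamoxifen. Cultures were kept in Dulbecco's modified medium containing 10% fetal calf serum, for 7 days by the sample title and 5 days by the stage label, and were dissociated with collagenase before the sort. Both kinds of well held cells of the same genotype, strain, culture and plate. The sort gates of either kind, and the number of cells each multi-cell well received, were not given in the sources used. The E12.5 cultured plate, with the same alleles and block and 5 days of culture, is shown beside some results, with 38 multi-cell and 200 single-cell wells.

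The embryonic kidney forms its nephrons from mesenchymal progenitors that express Six2 and gather around the tips of the branching ureteric epithelium. Progenitors that are induced turn on Pax8 and Wnt4, become epithelial and pattern into podocytes and tubule segments. The stroma between them makes fibrillar collagens and small proteoglycans. Wells are not replicates of a condition, and because each group was a lone plate without replicates, no test was made. Levels are counts per 1000000 nuclear counts of the same well (CPM), averaged with equal weight per well. CPM compares a gene between wells; it is not scaled to gene length and does not compare genes. Intervals are exact 95% intervals on summed counts or on shares of wells, and they cover counting error only.

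By medians the wells labelled as multi-cell were only a little richer in RNA than single-cell wells. Their nuclear counts ran from 1026.3 through a median of 10168 to 169065, those of the single-cell wells from 1132 through 8993 to 78448, and those of the 15 control wells from 53 through 150 to 528. The ratio of the medians was 1.13, and it was 0.90 when wells under the minimum were put back. The ratio of the means was 1.64. The multi-cell wells were more uneven: 15 lay above the upper quartile of the single-cell wells and 13 below the lower quartile, and the deepest, D19, held 26.8% of all their counts. Counts per spike-in count, a measure of RNA per well that uses synthetic transcripts added to each well, had medians of 27.5 and 22.6, a ratio of 1.22. The same ratio was 1.62 on the E12.5 plate. The means of this measure on the E11.5 plate were 45.6 and 26.3. After every well was thinned to 5000 counts, the 25 multi-cell wells that reached this depth showed a median of 2638 genes and the 250 single-cell wells 2634.5. On the E12.5 plate this difference of medians was 110 genes. The median depth of the wells and the number of genes at equal depth therefore set the 2 kinds of well apart by little on this plate. The wells are called here by their label.

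**Figure D1:**
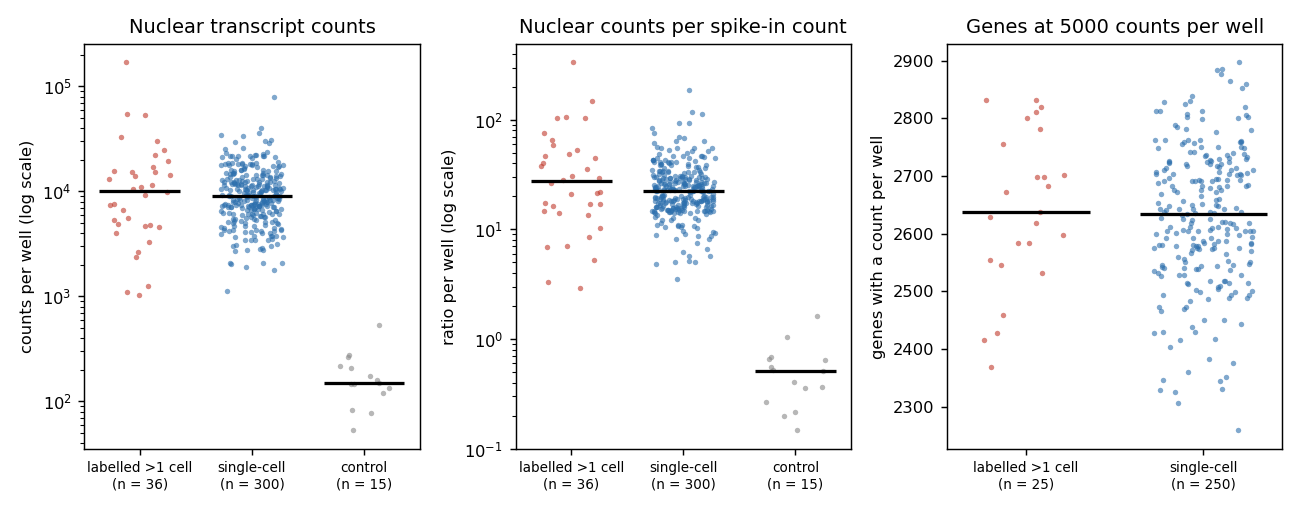
Nuclear transcript counts (left) and nuclear counts per spike-in count (middle), both on log scales, for each well labelled as holding more than 1 cell, each kept single-cell well and each control well, and genes found per well after thinning to 5000 counts (right). Each point is a well and each bar a median; the medians of the first 2 kinds lie close together in all 3 panels, 10168 against 8993 counts on the left, while the control wells lie far below.

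Transcripts of both sexes in 1 well offer a check of the label that depth does not. Xist, the RNA that silences an X chromosome in female cells, and at least 1 of the Y-linked genes Ddx3y, Uty, Eif2s3y and Kdm5d were found together in 9 of 25 multi-cell wells at equal depth (36%, 18.0 to 57.5) and in 33 of 250 single-cell wells (13.2%, 9.26 to 18.0). Without thinning these shares were 52.8% and 24%, and none of the 15 control wells had both, which allows a share of up to 20%, that of 3 wells of the 15, at a median depth of 150 counts. The share depended on where on the plate the single-cell wells lay. In rows A to G, the rows of the block, 19.6% of single-cell wells had both at equal depth, a value inside the interval of the multi-cell wells. These rows also differed in sex: single-cell wells there had a mean Xist level of 270 CPM and a summed Y-linked level of 283 CPM, while those of rows H to P had 1078 and 67.6 CPM. The multi-cell wells, at 347 and 247 CPM, resembled their own rows. Xist was thus 2.23-fold lower in multi-cell wells against all single-cell wells but higher against those of rows A to G, with a log2 ratio of 0.36. On the E12.5 plate 4 of 32 multi-cell wells and 20 of 180 single-cell wells had both transcripts at equal depth.

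The reporter transcript stood higher in the wells labelled as multi-cell. tdTom transcripts were counted in 26 of 36 multi-cell wells (72.2%, 54.8 to 85.8) and in 130 of 300 single-cell wells (43.3%, 37.6 to 49.2). In single-cell wells that carried at least 5 leukocyte markers, cells of a lineage apart from the kidney's own, the share was 41.2% (7 of 17 wells). Their median depth was 11549 counts and their mean level 48.9 CPM. The share in all single-cell wells was near this value, which rests on 17 deeper wells. Whether tdTom in single-cell wells was background was not tested. The median depths of all multi-cell and all single-cell wells were 10168 and 8993. Levels separated the 2 kinds of well further than shares. Multi-cell wells ran from 0 through a median of 362 CPM to 3939 CPM in well D20, and single-cell wells from 0 through a median of 0 to 443 CPM. The groups overlapped at the low end, and 15 of 36 multi-cell wells lay above the highest of the 300 single-cell wells. The mean levels were 784 and 66.5 CPM, a ratio of 11.8. From summed counts the levels were 523 and 63.8 CPM, a ratio of 8.20 (6.87 to 9.81). Against the 113 single-cell wells of rows A to G, whose mean was 68.8 CPM, the ratio was 11.4. The most tdTom counts in a multi-cell well were 55.4, in G20, followed by 44.2 in D23 and 36.2 in C20. On the E12.5 plate the mean levels were 557 and 77.3 CPM, a ratio of 7.20.

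Of the other added sequences 1 also stood higher here. EGFP_IRES_Cre, the transcript of the knock-in itself, had mean levels of 18.3 CPM in multi-cell and 29.2 CPM in single-cell wells, and a ratio of 0.94 (0.53 to 1.56) from summed counts. NeoR, a resistance gene used in targeting, was counted in 58.3% and 41% of wells at 176 and 85.1 CPM, a summed ratio of 2.0 (1.58 to 2.52), while the same ratio was 0.75 (0.50 to 1.09) on the E12.5 plate. Lgr6 was counted once in 1 of 36 multi-cell wells and in 8 of 300 single-cell wells, too few counts to compare.

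**Figure D2:**
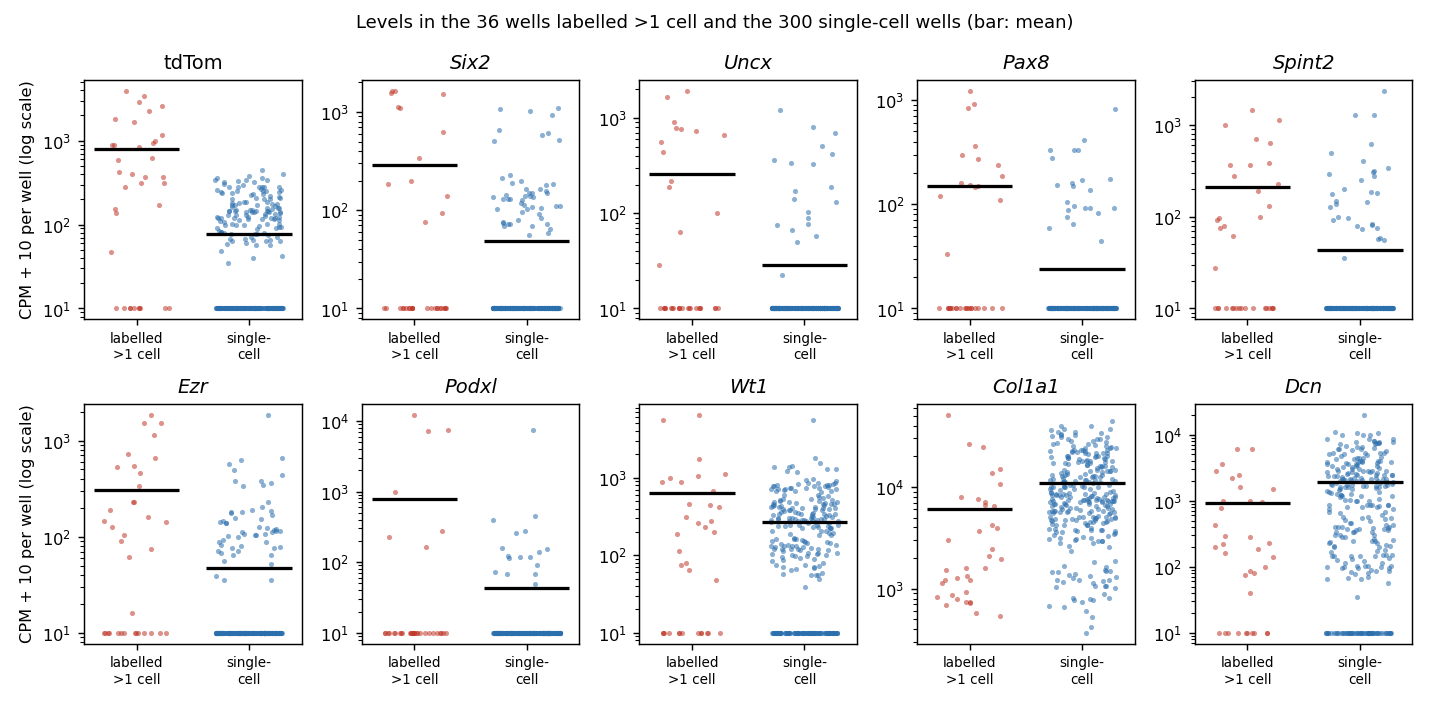
Level of tdTom and 9 genes in each well, in CPM with 10 added, on log scales, for the 36 wells labelled as holding more than 1 cell (red) and the 300 single-cell wells (blue); bars are means. Wells at the bottom have no count, and tdTom reaches 3939 CPM in red against 443 CPM in blue, while Col1a1 and Dcn lie lower in red.

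Nephron genes were among the leading differences that many wells shared. A gene was measured when its 2 group means averaged at least 20 CPM, which 8455 genes reached, and called when the means, each with 1 CPM added, differed at least 2-fold. Of the measured genes 713 were called higher in multi-cell wells (8.43%) and 558 lower (6.6%), and the median log2 ratio over all was −0.03. A called gene that stood higher was counted as shared when at least 10 multi-cell wells had it and no well held over 25% of its summed level, and as single-well when 1 well held over 50%. By this rule 139 of the 713 were shared, 235 rested on 1 well and 339 lay between. Of the 235, 162 had their highest well among the 3 shallowest, B20, E19 and G21, where 1 count stands for 974, 911 and 795 CPM and so adds 27.1, 25.3 and 22.1 CPM to the mean of the group. In 116 of the 235 the highest well held a single count. Without those 3 wells 529 genes were higher, 441 of them among the 713.

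**Figure D3:**
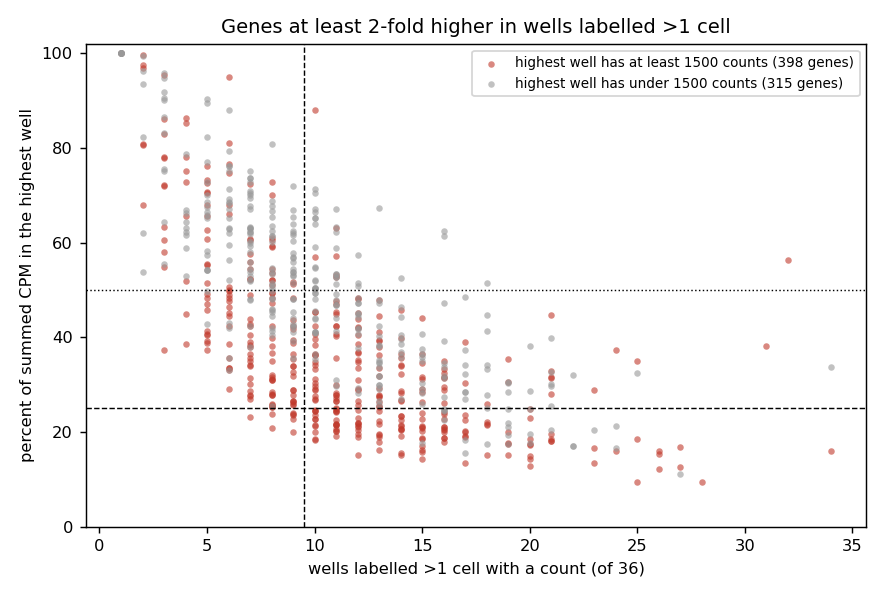
Each point is 1 of the 713 genes at least 2-fold higher in wells labelled as holding more than 1 cell, by the number of the 36 wells with a count (horizontal axis) and the percent of its summed CPM in the highest well (vertical axis). Grey points have their highest well among the 3 with under 1500 counts; the lower right corner set off by dashed lines holds the 139 shared genes, and the area above the dotted line the 235 single-well genes.

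Among the 12 shared genes with the largest ratios were 4 transcription factors of the nephron lineage. Uncx, a homeobox gene of nephron progenitors, was counted in 14 of 36 multi-cell and 20 of 300 single-cell wells, with levels of 0 to 1935 CPM and 0 to 1212 CPM and a median of 0 in both. Its means of 249 and 18.9 CPM differed 12.6-fold, and its summed counts 7.98-fold (5.71 to 11.2). Six2, which keeps progenitors undifferentiated, was counted in 13 and 52 wells at up to 1640 and 1077 CPM, with means of 281 and 39.1 CPM, a 7.04-fold difference that was 4.76-fold by summed counts. For both genes the ranges of the 2 kinds of well overlapped, and the difference lay in a minority of high wells. In the leukocyte-marked single-cell wells Six2 was found in 5 of 17 at a mean of 36.9 CPM, near the mean of all single-cell wells. Uncx stood at 6.16 CPM in the leukocyte-marked wells.

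The paired-box factors Pax8 and Pax2, which establish the nephron lineage and its epithelial conversion, showed the same. Pax8 had means of 141 and 13.7 CPM, a 9.66-fold difference, from 15 and 23 wells, and summed counts that differed 5.56-fold (3.61 to 8.56). Pax2 had 181 and 28.5 CPM, 6.18-fold, from 17 and 30 wells, and its summed counts differed 2.89-fold (2.06 to 4.04). Their highest wells, G19 for Pax8 and B19 for Pax2, held 24.1% and 19.3% of the summed level. On the E12.5 plate Uncx, Six2, Pax8 and Pax2 were 8.16-, 5.48-, 6.79- and 7.02-fold higher.

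The other shared genes at the top included several of epithelial surfaces and basement membrane. Ezr, which encodes ezrin, a linker of the cell membrane to actin in microvilli and podocyte processes, was counted in 22 of 36 and 57 of 300 wells. Its levels ran from 0 through 88.1 to 1823 CPM in multi-cell wells and from 0 through 0 to 1834 CPM in single-cell wells, with means of 296 and 36.8 CPM, a 7.85-fold difference. The highest multi-cell value was that of the shallow well E19, 2 counts of 1097.2, and from summed counts Ezr differed 3.42-fold (2.64 to 4.41). Spint2, an inhibitor of membrane serine proteases in epithelia, had means of 200 and 33.7 CPM, 5.79-fold, from 19 and 32 wells. Npnt, a ligand of integrin alpha 8 beta 1 in the ureteric basement membrane, was 7.95-fold higher, the laminin chain Lama1 7.05-fold and the laminin receptor subunit Itga3 5.78-fold. The forkhead factor Foxc1, at 256 and 43.5 CPM, was 5.78-fold higher from 20 and 94 wells, Tspan13 5.94-fold and Btbd11 8.45-fold. By summed counts Spint2 differed 3.27-fold, Itga3 2.91-fold and Tspan13 2.81-fold. All 12 stayed at least 2-fold higher under each of the 13 alternatives tried, including single-cell wells of the same rows or columns alone. They were picked for the largest ratios in these same wells, so this is no independent check. Uncx and Pax8, with single-cell means of 18.9 and 13.7 CPM, passed the 20 CPM filter through the multi-cell wells. So did Btbd11, Lama1 and Tspan13, whose single-cell means also lay under 20 CPM. These genes had to stand higher in multi-cell wells to be measured.

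Over the 7 lists of nephron and ureteric genes 45 of 86 genes were measured, 32 were higher and 1 was lower, with a median log2 ratio of 1.67 beside −0.03 over all genes. This count describes the 45 and not all 86: 20 of them had a single-cell mean under 20 CPM, passed the filter through the multi-cell wells alone and so stood higher there by selection. Of all 86 members 66 had a higher mean in multi-cell wells and 19 a lower one. Among the 25 whose single-cell mean alone reached 20 CPM, a filter that does not use the multi-cell wells, 13 were higher (52%) and 1 was lower, with a median of 1.18. By the same filter 3.93% of 8337 genes were higher, 9.51% lower, and the median was −0.12. On the E12.5 plate, by the same rule, 578 of 8403 genes were higher (6.88%) and 525 lower (6.25%), and the nephron lists had 39 of 54 measured genes higher, 1 lower and a median of 1.91, a count under the same limit. Of the nephron progenitor list 8 of 13 measured genes were higher and none lower: Six2, Cited1, Meox1, Uncx, Eya1, Sall1, Crym and Spock2. Of the 13, 4 had a single-cell mean under 20 CPM. Among the other 9, 4 were higher and 0 lower, with a median log2 ratio of 0.42. Spock2, a matrix proteoglycan, had 252 and 62.3 CPM. The Hox genes Hoxd11 and Hoxa11 and the integrin chain Itga8 were at ratios of 1.33, 1.04 and 1.03, and the early factor Osr1 at 1.11. Of the early nephron list 5 of 9 were higher, and Wnt4, the signal that drives the conversion to epithelium and is also made by medullary stroma, was lower at 70.7 and 142 CPM. Among the 5 of this list with a single-cell mean of at least 20 CPM, 2 were higher and 1 was lower.

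All 8 measured genes of the pan-epithelial list were higher, 6 of them having passed the filter through the multi-cell wells alone. Spint2 was counted in 19 multi-cell wells and Cldn6 in 10, the other 6 in 4 to 7. Epcam was counted in 6 multi-cell wells, Cdh1, which encodes E-cadherin, in 5 and the kidney cadherin Cdh16 in 5, at 7.02-, 11.1- and 5.85-fold differences. The shallow well E19 held 1 count each of Epcam and Cdh1. There 1 count stands for 911 CPM, the highest level of either gene in a multi-cell well, so these folds lean on it. Krt18 rested on 1 well, which held 85.2% of its level, and without each group's highest well its log2 ratio was −0.63. The 5 measured genes of the ureteric list also stood higher, but each had a single-cell mean under 20 CPM and so had to differ to be measured. Of all 16 members 9 had a higher mean in multi-cell wells and 7 a lower one, and with group means averaging at least 10 CPM 5 of 8 were higher and 1 lower. Of the 5, Epcam, Cdh1, Krt18 and Krt19 stand on the pan-epithelial list too. The fifth was Hoxb7, found in 11 wells. The tip genes Ret and Wnt11 stood at 0.511 and 2.22 CPM in multi-cell wells, under the level needed to be measured.

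Podocyte genes stood higher through a handful of wells. Of 12 measured genes of that list 9 were higher and none lower, with a median log2 ratio of 1.68, and of the 8 with a single-cell mean of at least 20 CPM 5 were higher, with a median of 1.21. Podxl, the sialomucin that coats podocyte processes, had means of 786 and 33.1 CPM, a 23.1-fold difference, from 7 of 36 and 17 of 300 wells. Wells F18, E21 and D21 held 32.1, 40.2 and 84.9 of its 165 counts, and F18 alone 42.8% of the summed level. Podxl was in none of the 17 leukocyte-marked wells, which allows a share of up to 17.6%. Ptpro, a phosphatase of podocyte processes, was found in 3 multi-cell wells, and Clic5 in 5. Wt1, the factor needed throughout nephron formation, was found in as large a share of both kinds of well, 63.9% and 64.3%, and differed 2.37-fold by mean level and 1.20-fold (1.02 to 1.41) by summed counts. Tcf21, which stroma also expresses, was at a ratio of 0.79, and Cdkn1c, a cell cycle inhibitor, at 1.52.

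By equal-weight means 6 of 18 measured stroma genes stood lower, while by summed counts none did and 1 stood higher. Col1a1, the main fibrillar collagen chain, was counted in every well of both kinds, from 523 through a median of 1776 to 50927 CPM in multi-cell wells and from 358 through 7747 to 44736 CPM in single-cell wells. Its means were 6022 and 10849 CPM, short of 2-fold. The ranges overlapped fully, while the medians lay far apart. None of the 18 was higher by equal-weight means, and their median log2 ratio was −0.81. The 6 were the proteoglycans Dcn and Lum, the growth factor Igf1, the peptide precursor Penk, the receptor Pdgfra and the factor Tbx18. Dcn had means of 898 and 1870 CPM and Igf1 258 and 722 CPM. Of 19 genes of the extracellular matrix list, which shares its 3 collagens Col1a1, Col1a2 and Col3a1 with the stroma list, 6 others were lower: Col6a1, Fbn1, Fbln1, Mfap4, Lox and Nid1. By summed counts 0 of the 19 were lower. The basement membrane collagens Col4a1 and Col4a2 were at ratios of 1.01 and 1.03. Foxd1, the factor of cortical stroma, was not lower, at 133 and 98.1 CPM.

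The weight given to wells mattered here. From summed counts, in which the deep, stroma-rich well D19 counts for much, the stroma median was −0.15, and Col1a1 was 1.11-fold higher (1.08 to 1.14) in multi-cell wells. Without D19 and with equal weights the stroma median was −0.93. In CPM a higher share for one group of genes lowers that of others, and fewer cells of a type and less RNA per cell cannot be told apart. Free RNA was also present: Col1a1 was found in 17 of 17 leukocyte-marked wells at 2374 CPM and in 12 of 15 control wells. Its part in the differences was not tested.

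**Figure D4:**
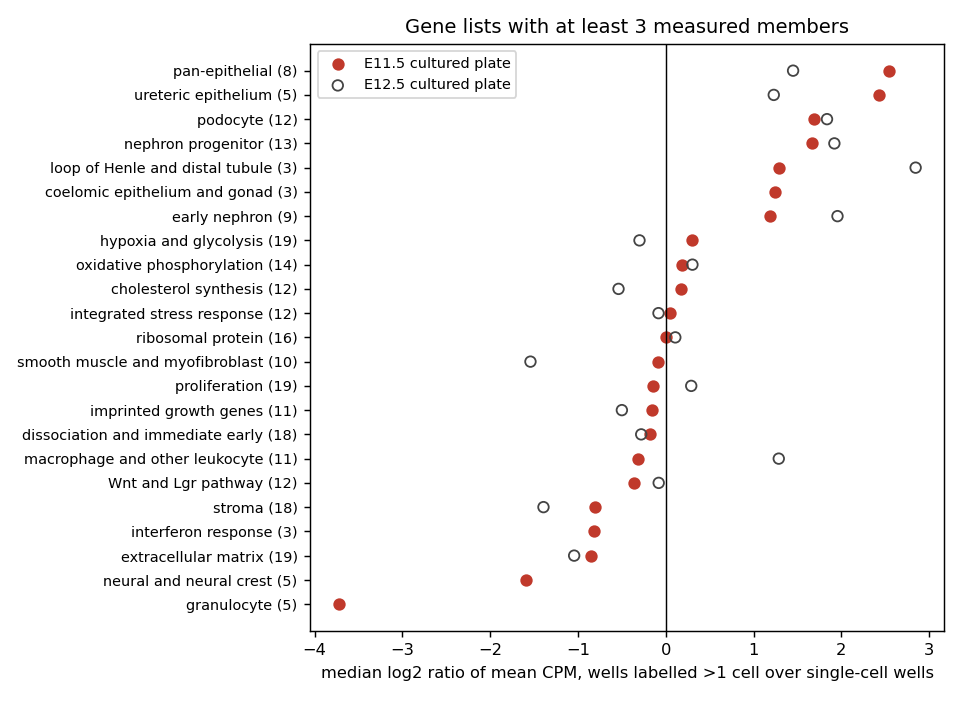
Median log2 ratio of mean CPM, wells labelled as holding more than 1 cell over single-cell wells, for each gene list with at least 3 measured members (number in brackets), on the E11.5 cultured plate (filled) and the E12.5 cultured plate (open). Nephron and epithelial lists lie to the right on both plates and stroma and extracellular matrix to the left, and the macrophage list lies on opposite sides, −0.32 and 1.29.

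Well by well, the multi-cell wells were of several kinds, most of them poor in stroma transcripts. The summed level of each list was set against the 95th percentile of the 300 single-cell wells, above which 15 of them lie by construction. The nephron progenitor list was above it in 10 of 36 multi-cell wells, the pan-epithelial list in 12, the podocyte list in 3 and the leukocyte list in 3. The 95th percentile of the pan-epithelial list was only 274 CPM, and 7 of the 12 wells above it had just 1 or 2 of its markers, with 1 to 7 counts. Taking these 4 lists, 14 wells were above it in none, 16 in 1 list, 6 in 2 and none in more. The stroma list was below the single-cell median in 30 of 36 wells and above the 95th percentile in 1, F21. In 7 wells it was below the 5th percentile.

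The wells above it for the progenitor list varied in how many of its markers they held. Well B22, with 22092 nuclear counts, had 14 of the 15 progenitor markers on the table at a summed 6618 CPM and stroma markers at 3350 CPM. Wells C19 and C22 had 12 progenitor markers each and C18 and G19 had 11, and well G21 had 2. Well G19 had the highest Uncx and Pax8 levels and no tdTom count. Of the 10 progenitor wells 8 had tdTom, with a median of 721 CPM.

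The 3 wells with the most markers of the epithelial list were not the 3 with the most of the podocyte list. Wells C20, D23 and F19 had 10, 10 and 13 of 15 pan-epithelial markers, with 2 podocyte-list markers each and stroma sums of 1430, 2504 and 2612 CPM, below the single-cell 5th percentile of 3058 CPM. C20 and D23 stood at 2589 and 3354 CPM of tdTom and F19 at 363 CPM. Well A18 had 8 pan-epithelial markers at 4580 CPM, the highest sum of the multi-cell wells. Its stroma sum was 1963 CPM and its tdTom level 393 CPM. Wells D21, E21 and F18 had 11, 12 and 12 of 13 podocyte markers at summed levels of 17350, 48939 and 61786 CPM, against a 95th percentile of 6093 CPM. tdTom was in all 3, at 613, 1781 and 2263 CPM, and in 1 of the 3 leukocyte wells, at 162 CPM. Wells D19 and G20 had 9 podocyte markers each, at summed levels of 3363 and 2905 CPM, below the 95th percentile.

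**Figure D5:**
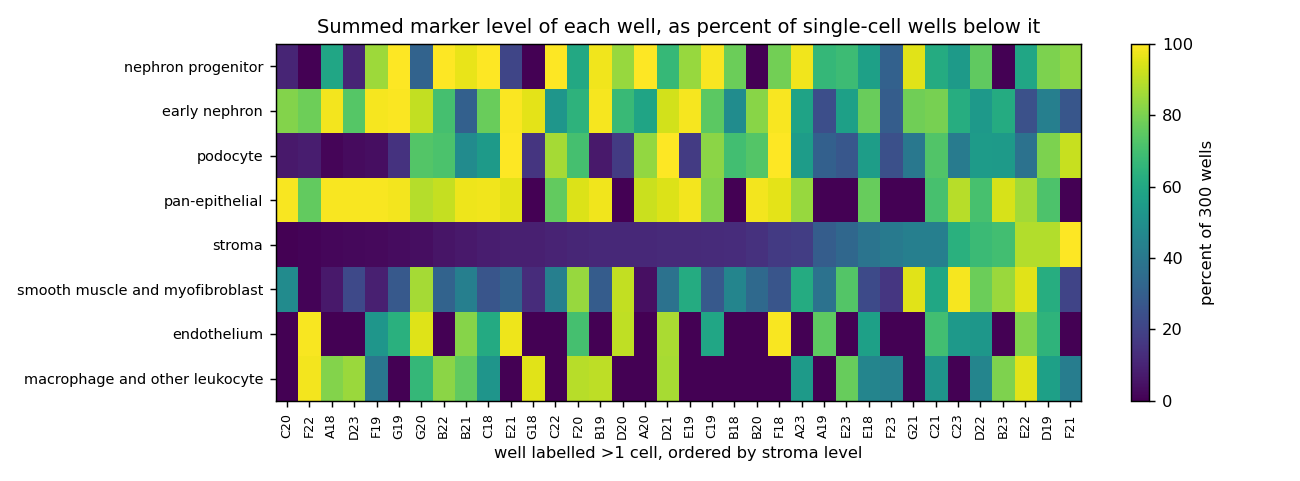
Summed marker level of 8 lists (rows) in each of the 36 wells labelled as holding more than 1 cell (columns, ordered by stroma level), as the percent of the 300 single-cell wells with a lower value. Yellow marks values above nearly all single-cell wells; 30 of 36 wells have stroma values below 50 percent.

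Multi-cell wells carried slightly more marker lists than single-cell wells at equal depth. At 5000 counts, with a list called present from 2 of its markers, multi-cell wells had a mean of 3.24 of 8 lists and single-cell wells 2.80, a difference of 0.436 that was 0.168 with another random draw. At least 3 lists were present in 21 of 25 multi-cell wells (84%) and in 156 of 250 single-cell wells (62.4%). The pan-epithelial list was present in 24% (9.36 to 45.1) and 3.2% (1.39 to 6.21), and the progenitor list in 76% and 53.2%. The stroma list was present in all wells of both kinds, and the podocyte list, which includes genes of other renal cells, in 84% and 88.8%, so these 2 do not separate them. Over 811 genes of at least 200 CPM the median coefficient of variation at equal depth was 0.937 in multi-cell and 0.974 in single-cell wells. It was higher in multi-cell wells for 43.4% of the genes. At 5000 counts 200 CPM is very few counts, so these medians hold much counting error and say little about unevenness between wells. Among abundant genes it was 1.61 and 0.83 for Col1a1 and 1.70 and 0.74 for Col3a1, but 0.71 and 0.84 for Gapdh.

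Single-well genes told of individual wells. Spp1, which encodes osteopontin, had the highest mean of them, 1459 and 31.8 CPM, of which well F22 held 95% with 764 counts. The same well held 293 of the counts of Lyz2, a lysozyme of macrophages, and 45.2 of those of Fabp5, a fatty acid carrier, and had 9 of 14 leukocyte markers. Without each group's highest well the log2 ratio of Lyz2 was −1.42. Ccl4, a chemokine of myeloid cells, rested on well E22, with 129 counts and 12 leukocyte markers, and Sprr1a, a cornified envelope protein, on F19. Mt1, a metallothionein, rested on G18. Rn7sk and n-R5-8s1, noncoding RNAs with many near-identical copies that make their counts uncertain, rested on 22.1 counts in B20 and 17 in B19. Without the 3 shallowest wells Rn7sk had a log2 ratio of −1.14.

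Granulocyte genes stood lower in multi-cell wells by mean level but not by share of wells, and macrophage genes were split. Of 11 measured macrophage and other leukocyte genes 2 were higher, Lyz2 and Tyrobp, and 4 lower, C1qa, C1qc, Csf1r and Mrc1, with a median log2 ratio of −0.32. That median was 0.80 against single-cell wells of rows A to G and −1.77 against those of columns 18 to 23. All 5 measured granulocyte genes were lower: S100a8 stood at 23.4 and 320 CPM, S100a9 at 11.7 and 190 CPM. S100a8 reached 40330 CPM in 1 single-cell well of rows A to G and no more than 462 CPM in rows H to P. It was counted in 27.8% of multi-cell and 26.7% of single-cell wells. At equal depth 2 granulocyte markers or more were found in 5 of 25 multi-cell wells (20%, 6.83 to 40.7). The same held for 23 of 250 single-cell wells (9.2%, 5.92 to 13.5). Against columns 18 to 23 the granulocyte median was −0.03, and Prtn3 was higher by a log2 ratio of 1.33. The myeloperoxidase gene Mpo and the renin gene Ren1 were single-well genes of the single-cell wells, of which 1 well held 50.2% and 93.7%.

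Of the 558 lower genes 541 were shared, counted in at least 10% of single-cell wells with no well holding over 25%. This number and the 139 above cannot be compared, since 300 wells spread a gene further than 36. Ly6h was 8.29-fold lower, at 5.68 and 54.4 CPM from 5 of 36 and 91 of 300 wells. Ebf3, a transcription factor of renal stroma, was 7.59-fold lower by mean level and 1.59-fold by summed counts, where D19 held most of its counts. The secreted ligands Inhba, an activin subunit, and Gdf10, a relative of the bone morphogenetic proteins, were 7.08- and 6.25-fold lower, and Fgf2 5.59-fold. Levels of these genes in multi-cell wells rested on 3 to 7 wells each. Pde4b, Cnrip1, Gucy1b3, Tmod2 and Neto2 were 5.74- to 7.22-fold lower. By summed counts 10 of the 12 shared genes with the smallest ratios stayed at least 2-fold lower. Ebf3 and Cnrip1 did not, and D19 held 15 multi-cell counts of Cnrip1. Against single-cell wells of rows A to G 11 of the 12 stayed at least 2-fold lower, and the weakest log2 ratio was −0.36. Gap43, a protein of growing axons, was 6.79-fold lower against all single-cell wells and higher, by a log2 ratio of 0.93, against those of columns 18 to 23. Tsix, which overlaps Xist on the opposite strand, was 5.96-fold lower, and its multi-cell level rested on 1 count each in C23 and E23. Single-cell wells of rows A to G had less Xist than those of rows H to P, and whether this bears on Tsix was not tested. The sources used here do not say whether counting used the strand.

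Several lists of cell states had medians near 0. The counts below stand beside 8.43% of all measured genes higher and 6.6% lower. Ribosomal protein genes had a median log2 ratio of 0.00, oxidative phosphorylation 0.18, the integrated stress response 0.05 and proliferation −0.15. Of 19 proliferation genes 2 were lower and none higher. Of 19 hypoxia and glycolysis genes, with a median of 0.30, 2 were higher, the glucose transporter Slc2a1 at 504 and 187 CPM and Ankrd37 at 128 and 52.7 CPM, and none was lower. Vegfa, the endothelial growth factor that podocytes and tubules make, was just short, at 1022 and 513 CPM, with medians of 692 and 306 CPM. Of 18 immediate early genes 1 was lower and none higher. Of 11 imprinted growth genes the noncoding RNA Meg3 was lower by equal-weight means, at 1131 and 2387 CPM. Well D19 held 810.1 Meg3 counts and F21 245.2, so this difference depends on the weight given to wells. Smooth muscle genes had a median of −0.09, with Ctgf alone higher. Of 2 measured endothelial genes 1 was higher, Cldn5, with 54.5% of its level in F18, a well with 12 podocyte markers. Of 3 endothelial genes with a single-cell mean of at least 20 CPM, 0 were higher and 2 lower.

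In the Wnt and Lgr pathway 2 of 12 measured genes were higher and 2 lower, beside 8.43% and 6.6% of all measured genes. Of the 11 with a single-cell mean of at least 20 CPM, 1 was higher and 2 were lower. Lgr4, the receptor of R-spondins found across kidney epithelia, was counted in 18 of 36 and 92 of 300 wells, at 0 through 17.7 to 2121 CPM and 0 through 0 to 794 CPM. Its means of 227 and 56.1 CPM differed 3.99-fold, and the leukocyte-marked wells stood at 4.17 CPM. Rnf43, a ligase that removes Wnt receptors and is held in check by R-spondin, was also higher, from 4 wells. The ligand Wnt5a and the antagonist Dkk2, both made by mesenchyme, were lower, at 63.8 and 187 CPM and at 27.3 and 89.3 CPM. Lgr5 was found in 1 multi-cell well, with 7 counts.

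The E12.5 cultured plate shared no well with this one. Of the 713 genes higher here 194 were higher there too, 27.2% of the 713 and 33.6% of the 578. Of the 558 lower genes 152 were lower there, 27.2% of the 558 and 29.0% of the 525. Only 454 of the 713 were measured there, and 42.7% of these were higher, beside 6.88% of all genes measured there. Of the 558, 494 were measured there, and 30.8% of these were lower, beside 6.25% of all. The filter can raise both shares. A gene with a mean under 20 CPM in one kind of well was measured only if its other mean was above 20 CPM. Of the 713, only 328 had a single-cell mean of at least 20 CPM on the E11.5 plate. Of the 139 shared higher genes 124 were measured there, and 59 of these were higher and 2 lower, under the same limit. The median of the stroma list was −1.39 there, that of smooth muscle −1.54 and that of the progenitor list 1.92. Both plates came from 1 sequencing run by the labels and held their block in the same rows and columns, so that what was sorted into the block and where it lay cannot be told apart on either.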

How the data were processed

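Sorted cells of cultured mouse embryonic kidneys were sequenced by SORT-seq, a plate method with molecular identifiers. Per the submitters' processing notes, STAR 2.6.1a, featureCounts 1.5.2 and the build GRCm38.p5 were used; the sources used here do not give their settings. The authors deposited a table of expected counts for each plate, numbers of identifiers that need not be whole; they were used as deposited and rounded for thinning and intervals. No count model was fitted, since each group is 1 plate. Totals left out spike-ins, mitochondrial genes and the 3 added sequences. Thinning drew 5000 counts per well (seed 11). Kept wells held 1026.3 to 169065 counts. No doublet caller was run, since doublets are what the label describes. The scripts were tested on simulated data. The members and lists were chosen with earlier results of these data known. Named genes were the 12 shared genes with the largest and the 12 with the smallest ratio, the 8 single-well genes of highest mean (5 at most for single-cell wells), up to 4 members of each list by mean level, Lgr genes, added sequences and sex-linked genes, without unnamed gene models; other list members and the genes of single wells were named after their values were seen. Python 3.11.15, numpy 2.4.6, pandas 2.3.3, scipy 1.17.1 and matplotlib 3.10.9 were used.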

Additional observations from a re-analysis of the deposited data

Results flagged for a closer look

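C1qc, a complement gene of macrophages, had a ratio of 0.230 between multi-cell and single-cell wells on the E11.5 cultured plate and of 3.96 on the E12.5 cultured plate, opposite directions; the difference was not tested. On the E11.5 plate it was counted in 6 of 36 multi-cell wells.

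Of the 6 multi-cell wells left out for low counts, A22 with 635 and G22 with 769.1 nuclear counts lay above the highest control well, which had 528.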

How the results depend on the processing

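The number of genes higher and lower changed with the weighting and the low-level filter: 213 and 210 with summed counts, 1289 and 959 with group means averaging at least 10 CPM, 229 and 188 with at least 50 CPM, and 211 and 1006 without the highest well of each gene in each group. That last setting takes more from 36 wells than from 300 and moved the median of all genes to −0.29 on the log2 scale. The nephron lists' median stayed between 1.26 and 2.33, and was 1.18 over the 25 with a single-cell mean of at least 20 CPM. The tdTom ratio was 8.20 with summed counts and 16.3 against columns 18 to 23. Wells with Xist and a Y-linked transcript made up 12.1% of multi-cell and 3.37% of single-cell wells at 2000 counts. The ratio of median counts was 0.90 with no minimum count. Single genes turned direction as log2 ratios: against columns 18 to 23 Gap43 (0.93), Lyz2 (−0.30), Ccl4 (−0.52), Ren1 (0.24), Prtn3 (1.33) and Stmn2 (0.49); without each highest well Lyz2 (−1.42), Ccl4 (−0.50) and Krt18 (−0.63); without the 3 wells under 1500 counts Rn7sk (−1.14); against rows A to G Xist (0.36). The cause was not tested. Leaving out those 3 wells or the deepest well, and the filter on the single-cell mean alone, were chosen after seeing the data. No paired analysis was possible because each group is 1 plate. Depth limits genes carried by few wells: 11 of 36 multi-cell wells fell short of 5000 counts.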
